A study of Mus musculus with 8 samples.

Results

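Chemokines, interleukins and their receptors were followed through the conversion of 3T3-L1 cells into fat cells. 3T3-L1 is a line of fibroblast-like preadipocytes, derived from Swiss albino mice per the labels, that stores lipid after hormonal induction. The genes were chosen by symbol (Ccl, Cxcl, Ccr, Cxcr or Il followed by a digit) among the rows whose mean over 8 RNA-seq libraries was at least 10 pseudo-counts. A pseudo-count is a read count that the authors scaled to make libraries comparable. Of 135 rows with such a symbol, 68 reached that mean and 67 did not, so the 68 are the detected part of the family, among 14647 genes at or above the same mean and 22798 rows in all. They comprised 11 CC chemokines, 8 CXC chemokines, 5 chemokine receptors, 16 interleukins with their soluble antagonists and 28 interleukin receptor chains.

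The 4 stages had 2 libraries each, numbered as experiments 1 and 2 in the labels. Proliferating cells were growing exponentially without any agent. Quiescent cells had been kept at confluence for 48 hours, also untreated. Clonal expansion was sampled 10 hours after an adipogenic cocktail of insulin (given in the labels as 5 µg/µl), the glucocorticoid dexamethasone (1 µM) and isobutylmethylxanthine (0.25 mM), a phosphodiesterase inhibitor that raises cyclic AMP. Differentiation was sampled 6 days after induction, when the cells had received the cocktail for 48 hours and insulin thereafter. All groups are 1 unmodified cell line, grown in medium with fetal bovine serum, and the labels do not say whether the 2 libraries of a stage came from separate cultures. The p-values therefore set differences between stages against the spread of 2 libraries, and that spread may be purely technical.

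Chemokines are small secreted proteins that attract leukocytes through G protein-coupled receptors: CC chemokines such as Ccl2 draw monocytes, and CXC chemokines of the Cxcl1 and Cxcl5 kind draw neutrophils. Most interleukin receptors signal either through JAK kinases and STAT factors, as the Il6st (gp130) and common gamma chain receptors do, or, for the interleukin-1 and interleukin-17 families, through adaptor proteins to the transcription factor NF-kB. Fibroblasts and preadipocytes make many of these ligands when stimulated, glucocorticoids are known to restrain a number of them, and interleukin-6 and interleukin-11 are known to be made by fibroblastic and stromal cells.

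Promoter sequence is shown for 4 members whose levels at clonal expansion were above those at quiescence and fell by differentiation: Il6, Il11, Cxcl1 and Il1rl1. They are examples, and other members, Il31ra, Il1r2 and Il13ra1 among them, took the same course. Each sequence is the 250 bases before an annotated start, read 5′ to 3′ on the gene's strand from a RefSeq promoter table of build GRCm38.p6, and 51 of the 68 members had an entry there. The Il6 window is chr5:30012864-30013113 (plus strand), that of Cxcl1 chr5:90890995-90891244 (plus strand), that of Il11 chr7:4778142-4778391 (minus strand), and the 2 starts of Il1rl1 give chr1:40429320-40429569 and chr1:40439379-40439628 (plus strand). Capitals mark matches, on either strand, to 5 short motifs: an NF-kB site (GGGNN followed directly by TTTCC), an AP-1 site (TGANTCA), a cyclic AMP response element core (TGACGT), a C/EBP site (TTNCNNAA) and a glucocorticoid receptor site (ACANNNTGT).
Il6: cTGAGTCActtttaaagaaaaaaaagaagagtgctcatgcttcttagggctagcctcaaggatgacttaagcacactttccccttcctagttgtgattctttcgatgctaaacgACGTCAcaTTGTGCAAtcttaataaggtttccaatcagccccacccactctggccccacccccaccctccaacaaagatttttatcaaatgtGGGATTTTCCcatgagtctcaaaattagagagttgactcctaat
Cxcl1: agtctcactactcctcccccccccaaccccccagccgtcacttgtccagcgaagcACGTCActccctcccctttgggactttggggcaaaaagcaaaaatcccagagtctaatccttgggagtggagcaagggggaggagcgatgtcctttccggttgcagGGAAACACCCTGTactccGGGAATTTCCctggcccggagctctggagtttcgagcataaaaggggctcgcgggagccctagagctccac
Il11: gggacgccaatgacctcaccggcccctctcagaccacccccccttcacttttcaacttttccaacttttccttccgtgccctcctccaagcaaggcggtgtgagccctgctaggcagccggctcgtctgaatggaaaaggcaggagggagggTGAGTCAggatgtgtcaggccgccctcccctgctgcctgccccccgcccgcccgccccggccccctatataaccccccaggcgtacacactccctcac
Il1rl1, upstream start: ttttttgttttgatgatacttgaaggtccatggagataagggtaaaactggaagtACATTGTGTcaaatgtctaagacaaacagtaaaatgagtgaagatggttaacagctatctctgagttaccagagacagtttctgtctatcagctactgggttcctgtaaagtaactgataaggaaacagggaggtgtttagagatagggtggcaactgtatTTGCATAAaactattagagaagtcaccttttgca
Il1rl1, downstream start: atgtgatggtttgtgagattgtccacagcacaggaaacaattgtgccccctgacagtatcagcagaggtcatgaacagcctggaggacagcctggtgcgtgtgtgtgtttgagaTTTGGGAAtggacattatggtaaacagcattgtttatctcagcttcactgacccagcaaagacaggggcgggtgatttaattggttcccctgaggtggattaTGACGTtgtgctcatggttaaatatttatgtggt
The Il6 window held an AP-1 match at -249 to -243 from the start, a cyclic AMP core at -136 to -131, a C/EBP match at -128 to -121 and an NF-kB match at -44 to -35. In the Cxcl1 window there were a cyclic AMP core at -195 to -190 and 2 NF-kB matches, at -89 to -80 and -71 to -62. The first NF-kB match overlapped a glucocorticoid receptor match at -85 to -77. The Il11 window held a single AP-1 match at -98 to -92, and a further listed Il11 start had none of the 5 motifs. The upstream Il1rl1 window held a glucocorticoid receptor match at -195 to -187 and a C/EBP match at -34 to -27. The downstream Il1rl1 window held a C/EBP match at -136 to -129 and a cyclic AMP core at -34 to -29. Over the family, the NF-kB letters occurred in 6 of 51 members (11.8%, against 1.65% of 27025 genes with such a window): Ccl9, Cxcl1, Il16, Il17rc, Il1rn and Il6. AP-1 letters occurred in 11 of 51 (21.6%, against 7.82%), the cyclic AMP core in 3 (5.88%, against 7.29%), C/EBP letters in 26 (51.0%, against 40.3%) and glucocorticoid receptor letters in 4 (7.84%, against 6.76%). All 3 members with the cyclic AMP core, Cxcl1, Il1rl1 and Il6, are among the genes shown, so the windows shown do not stand for the family. A match describes the letters of the window, with no binding measured here.

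Library totals ran from 122413485 to 151529060 pseudo-counts. All 7 fibroblast markers examined and all 8 fat cell markers were detected. The summed level of the fat cell markers was 61994 to 147548 pseudo-counts in the 6 libraries before differentiation and 4943388 and 5253885 at differentiation. Of 21 leukocyte markers in the table, 9 had a mean of at least 10. The highest means were those of Lyz2 (2240.5 pseudo-counts), Cd14 (1269.7), S100a8 (439.6) and Cd68 (316.6). The defining leukocyte marker Ptprc stayed at or below 2.73 in every library, and Ms4a1, Cd3e and Fcer1a were listed at 0 in all 8. The summed level of the leukocyte list was 4029 to 6995 before differentiation and 2256 and 2422 at differentiation. Lyz2, at 408 and 376 there, and Cd14, at 513 and 469, lay below all earlier libraries. Cd68 (299 and 304) stayed within its earlier range, and S100a8 stood at 849 and 1054. The part of these markers in the results was not tested. In bulk RNA, fewer cells making a transcript and less transcript per cell cannot be told apart.

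The family's summed level was lowest in the fat cells: it took 0.223% to 0.266% of a library's total in the 6 earlier libraries and 0.097% and 0.103% in those of differentiation. That sum is weighted towards its most abundant members. Cxcl12, Il6st and Il1r1 had the highest means over the 8 libraries, at 65508, 65237 and 38447 pseudo-counts, and each was lowest at differentiation. Over the 4 stages, 63 of the 68 members varied (limma's moderated F test, adjusted p under 0.05), where 89.2% of all genes tested did. The 5 that did not pass were Cxcr5, Cxcr6, Il17rb, Il1rapl1 and Il5. Differentiation was the stage of the lowest mean for 31 members (45.6%, against 32.5% of all genes tested), and for 30 both its libraries lay below all 6 others (44.1%, against 24.9%). Clonal expansion gave the highest mean for 25 (36.8%, against 30.5%), and for 20 both its libraries lay above all others (29.4%, against 24.8%). For 14 both differentiation libraries lay above all others (20.6%, against 27.3%), and for 10 both clonal expansion libraries lay below (14.7%, against 23.1%). Cxcl9, Il13, Il15, Il27, Il2ra and Il7 were among the 14, and Il1f9 among the 20. Only that stage brought each of them to the mean required, so the filter fixed their peak, and the shares with them left out are not given. Levels per kilobase of transcript differed widely within the family. Averaged over the 8 libraries, the highest of each class were Cxcl12 at 20916 pseudo-counts per kilobase, Ccl2 at 7924, Il6st at 7518, Il11 at 984.5 and the chemokine receptor Cxcr7 at 813.

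**Figure D1:**
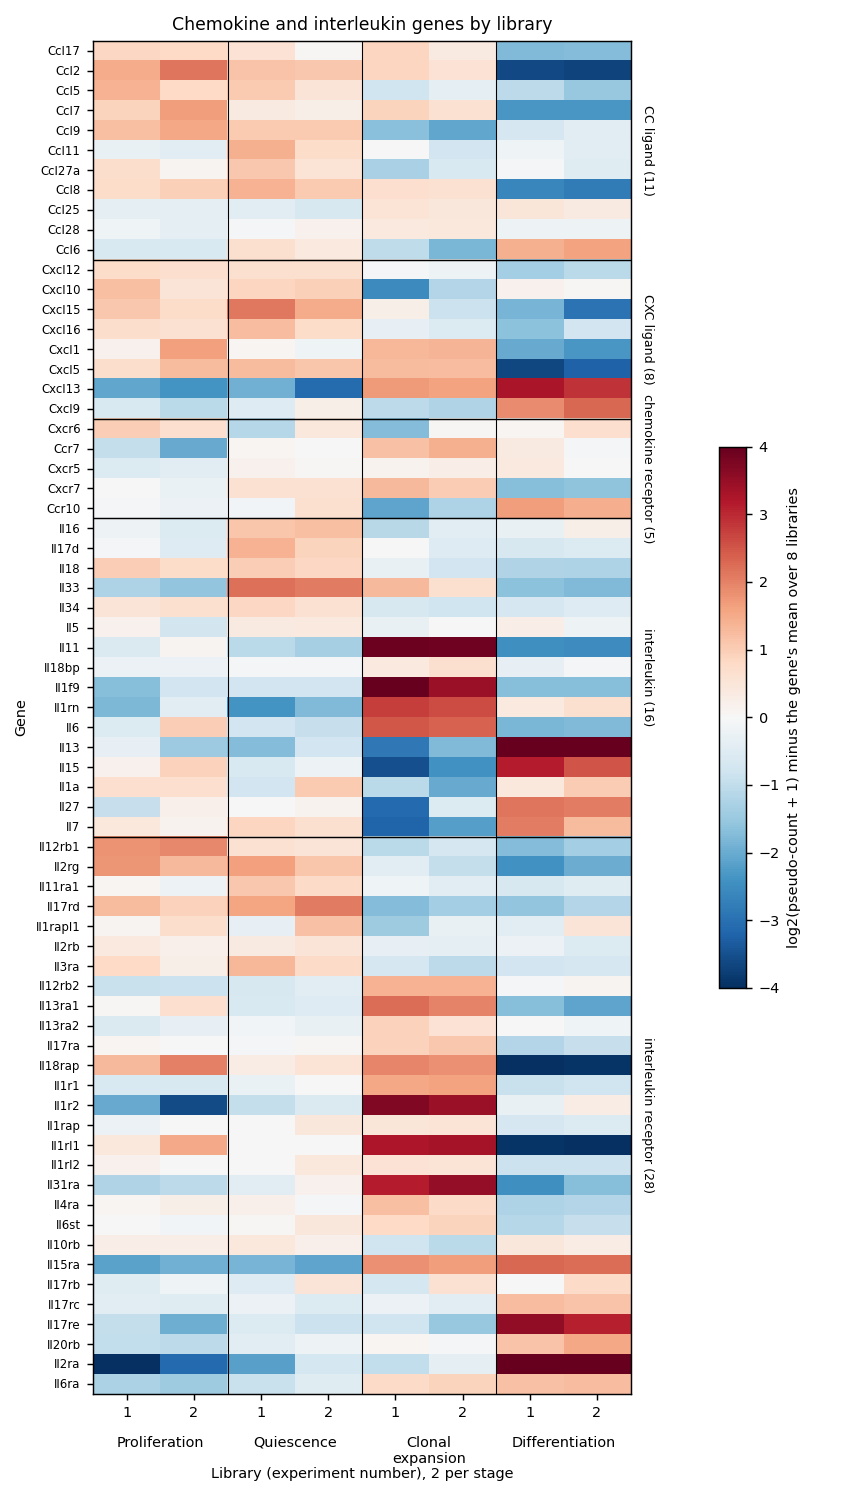
Levels of the 68 genes in the 8 libraries, as log2(pseudo-count + 1) minus the gene's own mean over the libraries, with rows grouped by class and colours ending at 4 in either direction. The dark blue cells of the 2 differentiation columns lie mostly among the chemokines and receptor chains that were high before, and the dark red cells of the clonal expansion columns include Il11, Il6, Il1r2, Il1rl1 and Il31ra.

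Between consecutive stages, 15 members rose and 6 fell from proliferation to quiescence (11.9% and 11.8% of all genes tested did). From quiescence to clonal expansion 23 rose and 26 fell (34.4% and 34.4% of all genes). From clonal expansion to differentiation 19 rose and 34 fell (36.8% and 36.2% of all genes), and from quiescence to differentiation 16 rose and 36 fell (33.4% and 32.9%). These counts rest on limma fitted to log2(pseudo-count + 1) over all genes tested, with a Benjamini-Hochberg adjusted p under 0.05, and the comparisons share stages, so they are not independent of one another. The median log2 fold change of the members was 0.23, -0.21, -0.64 and -0.94 in that order, where the median of all genes lay between -0.01 and 0.01. After quantile normalization the second value was 0.08, and none of the others changed sign under that scaling, scaling to the same total or removal of a length and GC trend. Among ligands and antagonists, 8 of 35 rose and 18 fell at clonal expansion against quiescence, whereas 15 of 33 receptor chains rose and 8 fell. That difference between ligands and receptors was not tested. For 8 members the mean over the 6 libraries outside their highest stage was under 10, so that only that stage brought them into the family as tested: Cxcl9, Il13, Il15, Il1a, Il27, Il2ra and Il7 through differentiation and Il1f9 through clonal expansion. Their differences from that stage were fixed by the filter, in the case of Il1a only in part. For Il2ra, Il13, Il15 and Il1f9 levels are given with no test of them. All of the 8 but Il2ra are ligands, and the ligand counts above include them. Ligand and receptor counts without them are not given. Among the other 60, 22 rose and 22 fell at clonal expansion against quiescence, with a median of 0.07. From clonal expansion to differentiation 12 of the 60 rose and 33 fell, and from quiescence to differentiation 11 rose and 36 fell, with medians of -0.69 and -1.14. Of all genes with the same mean outside their highest stage, 35.1% and 34.5%, 35.8% and 37.0%, and 32.6% and 33.5% rose and fell in these 3 comparisons.

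**Figure D2:**
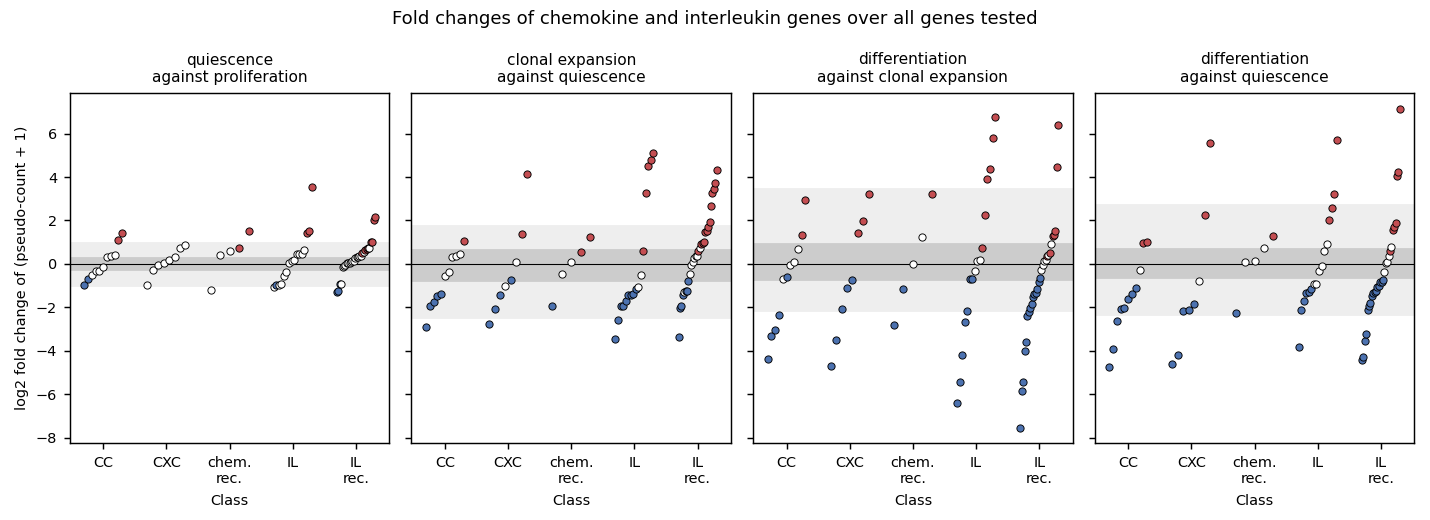
Log2 fold changes of (pseudo-count + 1) for the 68 genes in each comparison, 1 point per gene by class (CC and CXC chemokines, chemokine receptors, interleukins, interleukin receptors), filled red or blue where called higher or lower. The dark band holds the middle 50 percent and the light band the middle 90 percent of all genes tested; points below the light band are most numerous in the 2 comparisons with differentiation.

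The step to confluence changed fewer members than the later steps, and their number depended on a single library. The clearest rise was that of Il33, an alarmin of the interleukin-1 family that signals through Il1rl1. Il33 measured 109.8 and 86.8 pseudo-counts in proliferating cells, 1209 and 1092 in quiescent cells, 634 and 405 during clonal expansion and 83.2 and 75.1 in differentiated cells. Both quiescence libraries lay above all others, and those of proliferation and differentiation were the lowest. It rose by 3.54 on the log2 scale (SE 0.24, limma adjusted p = 1.91e-05) on confluence and fell by 3.84 on the log2 scale (SE 0.24, limma adjusted p = 3.34e-07) from quiescence to differentiation. Among members with at least 50 pseudo-counts at the higher stage, the next largest rises on confluence were those of Il16, Il17d and Ccl11. Il16, a chemoattractant of CD4-bearing cells, measured 87.2 and 67.4 pseudo-counts in proliferating cells, 216 and 231 in quiescent cells, 45.6 and 74.5 during clonal expansion and 81 and 118 in differentiated cells. Il17d, a secreted member of the interleukin-17 family, measured 81 and 59.5 pseudo-counts in proliferating cells, 227 and 159.6 in quiescent cells, 86 and 59.8 during clonal expansion and 55.2 and 58.8 in differentiated cells. For both, the quiescence libraries stood above all others. Il16 rose by 1.53 on the log2 scale (SE 0.30, limma adjusted p = 0.00558), and Il17d rose by 1.44 on the log2 scale (SE 0.29, limma adjusted p = 0.00631). Il12rb1, a chain shared by the interleukin-12 and interleukin-23 receptors, moved the other way and measured 236 and 258 pseudo-counts in proliferating cells, 102 and 97.2 in quiescent cells, 31.4 and 41.4 during clonal expansion and 19.7 and 25.4 in differentiated cells. Its levels stepped down at every stage without overlap, and it fell by 1.30 on the log2 scale (SE 0.26, limma adjusted p = 0.00632) on confluence.

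The 2 proliferation libraries differed from each other in some members. Among the 44 members with a mean of at least 100 at proliferation, 8 were at least 1.5-fold higher in experiment 2 (18.2%, against 1.53% of all genes at that level) and 3 at least 1.5-fold lower (6.82%, against 1.52%). The 8 were Ccl2, Ccl7, Cxcl1, Il6, Il11, Il13ra1, Il18rap and Il1rl1, and the 3 were Ccl5, Ccl27a and Cxcl10. Of 22 NF-kB target genes outside the family with that level, 2 were at least 1.5-fold higher in experiment 2, none was as much lower and 20 lay within that range. The 2 were Ptgs2 (cyclooxygenase 2), at 2141 and 9994 pseudo-counts in experiments 1 and 2, and Ier3, at 1752 and 4876. Over 5 lists of pathway genes outside the family, 4 of 99 such genes were higher and 3 lower by that measure. Without proliferation 2, the members called at quiescence against proliferation numbered 3 higher and 1 lower (4.51% and 4.40% of all genes), namely Il33, Il11ra1, Il2ra and Ccl7. All the other quiescence against proliferation calls given here were lost without that library, those of Il16, Il17d and Il12rb1 included. Il2ra was near the limit of detection in this comparison, at 0 and 0.934 pseudo-counts in proliferating cells and 2.68 and 9.36 in quiescent cells. Its call was lost after quantile normalization and with no filter on low values. Without proliferation 1, 10 members were lower.

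The monocyte attractants Ccl2, Ccl7 and Ccl8 were abundant or steady until clonal expansion and low in fat cells. Their genes lie with Ccl11 on chromosome 11 (mm9, chr11:81849079-81930301). Ccl2 measured 9625 and 15255 pseudo-counts in proliferating cells, 7527 and 7168 in quiescent cells, 6259 and 5158 during clonal expansion and 282 and 262 in differentiated cells. The 2 differentiation libraries stood far below the other 6, among which proliferation 2 was the highest. Ccl2 fell by 4.38 on the log2 scale (SE 0.19, limma adjusted p = 2.81e-08) from clonal expansion and fell by 4.75 on the log2 scale (SE 0.19, limma adjusted p = 2.28e-08) from quiescence, 26.9-fold, while clonal expansion against quiescence was not called (log2 difference -0.37, SE 0.19, limma adjusted p = 0.11). Ccl7, which attracts monocytes through the same receptor, measured 7784 and 13249 pseudo-counts in proliferating cells, 5388 and 4950.5 in quiescent cells, 7696 and 6357 during clonal expansion and 841 and 832 in differentiated cells. It fell by 0.98 on the log2 scale (SE 0.21, limma adjusted p = 0.00853) on confluence, a fall of 0.59 without proliferation 2 and not called with no filter on low values (adjusted p = 0.11). It fell by 3.06 on the log2 scale (SE 0.21, limma adjusted p = 5.48e-07) between clonal expansion and differentiation. Ccl8 was far less abundant, with 93.1 and 108 pseudo-counts in proliferating cells, 147 and 116 in quiescent cells, 89.3 and 86.6 during clonal expansion and 8.4 and 7.22 in differentiated cells. Again the differentiation libraries alone were low, and it fell by 3.91 on the log2 scale (SE 0.26, limma adjusted p = 5.67e-07) against quiescence.

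Not all CC chemokines followed that course. Ccl11 (eotaxin), the gene between Ccl7 and Ccl8, measured 149.7 and 136 pseudo-counts in proliferating cells, 494 and 308 in quiescent cells, 183 and 108 during clonal expansion and 163 and 138 in differentiated cells. It was highest in both quiescence libraries and overlapped among the other stages. Ccl11 rose by 1.44 on the log2 scale (SE 0.30, limma adjusted p = 0.00696) on confluence and fell by 1.46 on the log2 scale (SE 0.30, limma adjusted p = 0.00144) after the cocktail. Ccl9 and Ccl6 are neighbours further along the chromosome, and both attract myeloid cells. Ccl9 measured 2142 and 2698 pseudo-counts in proliferating cells, 1927 and 1906 in quiescent cells, 289.7 and 217 during clonal expansion and 585 and 672 in differentiated cells, the lowest stage being clonal expansion. It fell by 2.93 on the log2 scale (SE 0.18, limma adjusted p = 6.78e-07) at clonal expansion, then rose by 1.32 on the log2 scale (SE 0.18, limma adjusted p = 7.66e-05) to a level still below that of quiescence. Ccl6 measured 129.7 and 131 pseudo-counts in proliferating cells, 312 and 259.9 in quiescent cells, 98.7 and 55 during clonal expansion and 540.5 and 608 in differentiated cells. It fell by 1.94 on the log2 scale (SE 0.27, limma adjusted p = 0.000114) at clonal expansion and rose by 2.94 on the log2 scale (SE 0.27, limma adjusted p = 4.22e-06) by differentiation, where both libraries stood above all others. Ccl6 shares its position with the row of E230016K23Rik (mean 159 pseudo-counts), and unstranded reads cannot assign the overlap. Of the 11 CC chemokines, 8 fell and 2 rose from quiescence to differentiation (32.9% and 33.4% of all genes tested did), with a median log2 fold change of -1.61. The 2 risers were Ccl6 and Ccl25, a ligand of Ccr9, and Ccl28 did not pass. Ccl5, Ccl17 and Ccl27a were among the 8.

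Cxcl12, the ligand that retains blood progenitors in bone marrow stroma, was the most abundant member per kilobase in the family. It measured 95382 and 91843 pseudo-counts in proliferating cells, 90668 and 89264 in quiescent cells, 56531 and 50555 during clonal expansion and 22436 and 27384 in differentiated cells. Its level was even before induction and stepped down at the 2 later stages without overlap. Cxcl12 fell by 0.75 on the log2 scale (SE 0.12, limma adjusted p = 0.000296) at clonal expansion and fell by 1.11 on the log2 scale (SE 0.12, limma adjusted p = 1.44e-05) by differentiation. The neutrophil attractants lie together on chromosome 5 (mm9, chr5:91188325-91322141). Cxcl5 measured 5054 and 7507 pseudo-counts in proliferating cells, 7395 and 6764 in quiescent cells, 7517 and 7361 during clonal expansion and 249 and 329 in differentiated cells. The 6 earlier libraries lay between 5054.0 and 7517 and the 2 of differentiation far below. Cxcl5 fell by 4.70 on the log2 scale (SE 0.19, limma adjusted p = 1.66e-08) from clonal expansion, 25.9-fold, and fell by 4.62 on the log2 scale (SE 0.19, limma adjusted p = 2.42e-08) from quiescence. Cxcl1 measured 2448 and 6883 pseudo-counts in proliferating cells, 2302 and 1945 in quiescent cells, 5466 and 5582 during clonal expansion and 540.2 and 435 in differentiated cells. It rose by 1.38 on the log2 scale (SE 0.36, limma adjusted p = 0.00661) at clonal expansion, though proliferation 2 stood higher still and the rise was not called with no filter on low values (adjusted p = 0.0943). By differentiation it fell by 3.51 on the log2 scale (SE 0.36, limma adjusted p = 1.12e-05). Cxcl15, the third gene of the group, measured 134 and 104 pseudo-counts in proliferating cells, 273 and 175 in quiescent cells, 74.1 and 34 during clonal expansion and 16.4 and 7.26 in differentiated cells. Cxcl15 was highest at quiescence and fell by 4.20 on the log2 scale (SE 0.45, limma adjusted p = 1.81e-05) by differentiation.

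The remaining CXC chemokines named by size of change took another course. Cxcl13, which attracts B cells, measured 8.18 and 6.37 pseudo-counts in proliferating cells, 9.31 and 3.61 in quiescent cells, 126 and 117 during clonal expansion and 374 and 286 in differentiated cells. It was near the limit of detection before the cocktail and rose in 2 steps that did not overlap. Cxcl13 rose by 4.15 on the log2 scale (SE 0.39, limma adjusted p = 9.03e-06) at clonal expansion and rose by 5.57 on the log2 scale (SE 0.39, limma adjusted p = 8.14e-07) against quiescence by differentiation. Cxcl10, an interferon-induced attractant of T cells, measured 161 and 99.9 pseudo-counts in proliferating cells, 126 and 137 in quiescent cells, 11.1 and 30.4 during clonal expansion and 78.8 and 71.5 in differentiated cells. Its 2 clonal expansion libraries lay below all others, so that it fell by 2.76 on the log2 scale (SE 0.42, limma adjusted p = 0.000213) and then rose by 1.96 on the log2 scale (SE 0.42, limma adjusted p = 0.0017). That rise was 1.28 without clonal expansion 1 and 1.09 after quantile normalization. The Art3 row (mean 178 pseudo-counts) overlaps that of Cxcl10. Its neighbour Cxcl9 was at 2.42 to 8.39 in the 6 earlier libraries and at 28.5 and 38 at differentiation. From clonal expansion to differentiation 5 of the 8 CXC chemokines fell and 3 rose (36.2% and 36.8% of all genes tested). Cxcl9 was among the 3, and its rise was fixed by the filter. Cxcl16 passed with a limma adjusted p of 0.0422 and lost its call with no filter on low values, with no mean-variance trend and without any 1 of 5 libraries, where its log2 difference ran from -0.88 to -0.33. Cxcl13 lost its call for that step after quantile normalization, with no filter on low values and without differentiation 1 (1.23, adjusted p = 0.0676).

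**Figure D3:**
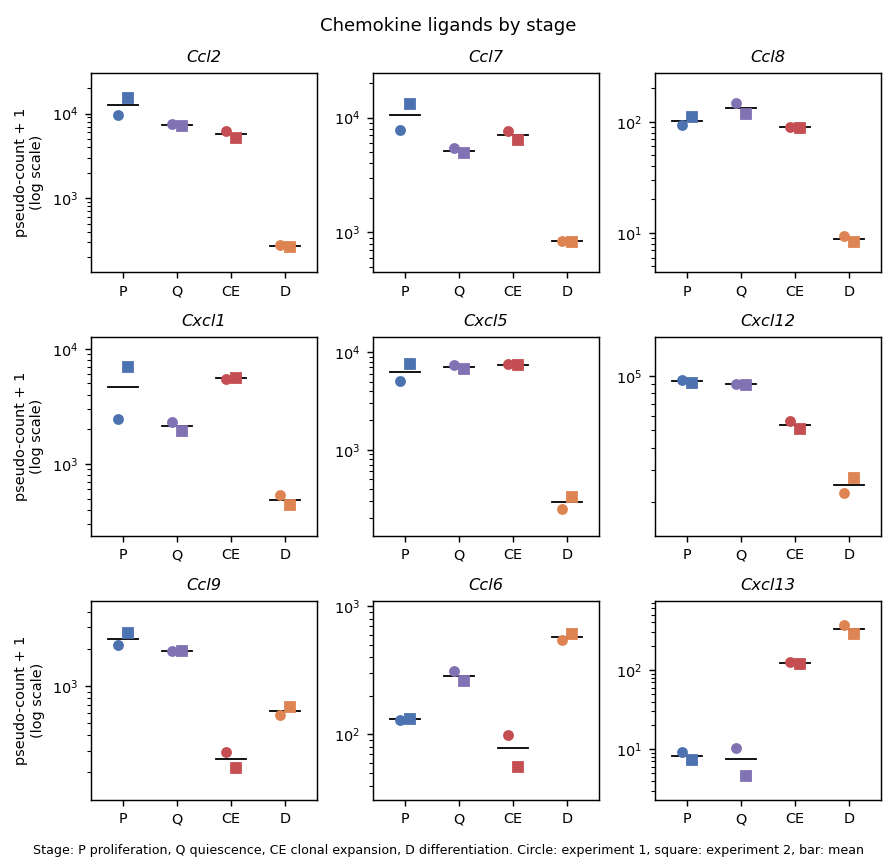
Levels of 9 chemokine ligands by stage (pseudo-count + 1, log scale; circle and square are experiments 1 and 2, the bar is their mean). In the panels of Ccl2, Ccl7, Ccl8, Cxcl1, Cxcl5 and Cxcl12 the 2 differentiation libraries lie below all others, while those of Ccl6 and Cxcl13 lie above.

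Few chemokine receptors were detected. Cxcr7, an atypical receptor that takes up Cxcl12 without G protein signalling, was the most abundant and measured 2026 and 1636 pseudo-counts in proliferating cells, 3056 and 3056 in quiescent cells, 4899.8 and 4017 during clonal expansion and 604 and 649.5 in differentiated cells. It was highest at clonal expansion and lowest at differentiation. Cxcr7 rose by 0.75 on the log2 scale (SE 0.14, limma adjusted p = 0.00505) on confluence, rose by 0.54 on the log2 scale (SE 0.14, limma adjusted p = 0.00727) at clonal expansion and fell by 2.82 on the log2 scale (SE 0.14, limma adjusted p = 7.62e-08) by differentiation. The rise at clonal expansion was not called when each library was scaled to the same total, nor without clonal expansion 1 (0.39, adjusted p = 0.0878). Ccr10, a receptor of Ccl27 and Ccl28, measured 119 and 108 pseudo-counts in proliferating cells, 116 and 197 in quiescent cells, 28.3 and 52.5 during clonal expansion and 405 and 346 in differentiated cells. Both clonal expansion libraries were the lowest and both differentiation libraries the highest. Ccr10 fell by 1.94 on the log2 scale (SE 0.33, limma adjusted p = 0.00047) and then rose by 3.24 on the log2 scale (SE 0.33, limma adjusted p = 9.95e-06). Ccr7, Cxcr5 and Cxcr6 did not exceed 63.4 in any library. Cxcr4, the signalling receptor of Cxcl12, was listed at 0 in all 8 libraries, and Ccr2, the receptor of Ccl2 and Ccl7, did not exceed 0.934.

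In the interleukin-6 and interleukin-12 group, 6 of 9 members rose and 3 fell from quiescence to clonal expansion (34.4% of all genes tested in each direction), with a median log2 fold change of 1.51. Il27, Il11ra1 and Il12rb1 were the 3 that fell. From there to differentiation 2 rose and 6 fell (36.8% and 36.2% of all genes), with a median of -1.36. Il27 was among the 2 that rose, and the filter fixed its rise, since only differentiation brought it into the family. Il11, a gp130 cytokine, measured 236 and 381 pseudo-counts in proliferating cells, 166 and 139 in quiescent cells, 5306 and 5222 during clonal expansion and 62.7 and 60.8 in differentiated cells. Both clonal expansion libraries exceeded every other library more than 10-fold. It rose by 5.10 on the log2 scale (SE 0.23, limma adjusted p = 1.33e-07) and then fell by 6.39 on the log2 scale (SE 0.23, limma adjusted p = 7.71e-09), an 83.9-fold fall to a level below that of quiescence. Il6, a further gp130 cytokine, measured 61 and 179 pseudo-counts in proliferating cells, 52.1 and 46.2 in quiescent cells, 505 and 463 during clonal expansion and 24.4 and 25.7 in differentiated cells. Proliferation 2 stood apart from the other untreated libraries but well below those of clonal expansion. Il6 rose by 3.27 on the log2 scale (SE 0.41, limma adjusted p = 6.1e-05) and fell by 4.22 on the log2 scale (SE 0.41, limma adjusted p = 7.14e-06). Il27, a related subunit, was scarce, at 0.141 to 10.5 before differentiation and 42.9 and 40.3 there.

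Among the receptors, Il6st (gp130), the signal chain shared by this group, measured 58769 and 54303 pseudo-counts in proliferating cells, 60036 and 80423 in quiescent cells, 101519.6 and 109021 during clonal expansion and 26755 and 31068 in differentiated cells. It rose by 0.60 on the log2 scale (SE 0.15, limma adjusted p = 0.00427) at clonal expansion and fell by 1.87 on the log2 scale (SE 0.15, limma adjusted p = 1.42e-06) by differentiation. The first of these calls was lost when libraries were scaled to the same total or quantile normalized, and the difference was 0.39 without quiescence 1. Il31ra, which pairs with the oncostatin M receptor and lies 15947 bases from Il6st on chromosome 13, measured 262 and 291 pseudo-counts in proliferating cells, 445 and 682 in quiescent cells, 5350.0 and 6878 during clonal expansion and 108 and 184 in differentiated cells. Both clonal expansion libraries stood more than 7-fold above every other library. It rose by 3.46 on the log2 scale (SE 0.27, limma adjusted p = 2.95e-06) and fell by 5.42 on the log2 scale (SE 0.27, limma adjusted p = 7.42e-08). Il6ra, the chain that binds interleukin-6 itself, did not fall afterwards and measured 724 and 646 pseudo-counts in proliferating cells, 926 and 1239.7 in quiescent cells, 2928 and 3191 during clonal expansion and 3892 and 4088 in differentiated cells. The 4 stages did not overlap and ascended in the order of the protocol. Il6ra rose by 1.51 on the log2 scale (SE 0.15, limma adjusted p = 1.38e-05) and reached 3989.7 ± 138 pseudo-counts (SD, n = 2) at differentiation, having risen by 1.89 on the log2 scale (SE 0.15, limma adjusted p = 2.11e-06) against quiescence. Il11ra1, which binds interleukin-11, peaked at quiescence and measured 12023 and 9799 pseudo-counts in proliferating cells, 24048 and 19486 in quiescent cells, 10128 and 8424 during clonal expansion and 7349 and 8088 in differentiated cells. Il11ra1 rose by 1.00 on the log2 scale (SE 0.15, limma adjusted p = 0.00112) on confluence and fell by 1.23 on the log2 scale (SE 0.15, limma adjusted p = 4.05e-05) at clonal expansion. Il11ra1 and its neighbour Ccl27a lie in a region of chromosome 4 with near-identical copies, so both values are uncertain.

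Of the 13 members of the interleukin-1 family, 7 rose and 3 fell at clonal expansion (34.4% of all genes tested in each direction), with a median log2 fold change of 0.59. At differentiation against clonal expansion 1 rose and 11 fell (36.8% and 36.2% of all genes), with a median of -2.18. Il1f9 was among the 7 and the 11, and Il1a was the member that rose by differentiation. Each of the 2 genes entered the family only through its highest stage, and the filter fixed the differences of Il1f9. The filter bore only in part on that of Il1a, whose proliferation libraries (14.5 and 14.5) overlapped those of differentiation (11.9 and 18.7). Il1a stood at 3.59 and 1.38 at clonal expansion, near the limit of detection. A row of 5 receptor genes lies on chromosome 1 (mm9, chr1:40141613-40606142) in the order Il1r2, Il1r1, Il1rl2, Il1rl1 and Il18rap. Il1rl1 (ST2), the receptor of interleukin-33, measured 2156 and 4549 pseudo-counts in proliferating cells, 1636 and 1633 in quiescent cells, 14991 and 16043 during clonal expansion and 104 and 65.3 in differentiated cells. Clonal expansion was the highest stage, differentiation by far the lowest, and proliferation 2 stood above the other untreated libraries. Il1rl1 rose by 3.25 on the log2 scale (SE 0.31, limma adjusted p = 9.2e-06) and fell by 7.54 on the log2 scale (SE 0.31, limma adjusted p = 1.86e-08), a fall of 186-fold and the largest of any member in that comparison. Il1r2, a decoy receptor that binds interleukin-1 without signalling, measured 12.1 and 3.41 pseudo-counts in proliferating cells, 26.5 and 34.6 in quiescent cells, 688 and 584 during clonal expansion and 42.2 and 64.4 in differentiated cells. It rose by 4.34 on the log2 scale (SE 0.46, limma adjusted p = 2.02e-05) and fell by 3.58 on the log2 scale (SE 0.46, limma adjusted p = 5.61e-05). Il1r1, the signalling receptor, was already abundant and measured 19556 and 19718 pseudo-counts in proliferating cells, 25179 and 30624 in quiescent cells, 88329 and 90774 during clonal expansion and 16199 and 17197 in differentiated cells. Il1r1 rose by 1.69 on the log2 scale (SE 0.11, limma adjusted p = 9.51e-07) and fell by 2.42 on the log2 scale (SE 0.11, limma adjusted p = 3.65e-08), so that the decoy and the signalling chain peaked at the same stage.

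Il18rap, a chain of the interleukin-18 receptor, measured 337 and 564 pseudo-counts in proliferating cells, 169.7 and 203 in quiescent cells, 541 and 493 during clonal expansion and 7.38 and 8.24 in differentiated cells. Differentiation was near the limit of detection and clonal expansion overlapped proliferation. It fell by 5.88 on the log2 scale (SE 0.26, limma adjusted p = 3.42e-08) by differentiation. Il1rl2, the interleukin-36 receptor, and Il1rap, the accessory chain of the family, did not pass at clonal expansion against quiescence (log2 difference 0.34, SE 0.14, limma adjusted p = 0.0575 and log2 difference 0.29, SE 0.15, limma adjusted p = 0.111). Both fell by differentiation, Il1rl2 by 1.41 on the log2 scale (SE 0.14, limma adjusted p = 9.29e-06) and Il1rap by 1.14 on the log2 scale (SE 0.15, limma adjusted p = 5.99e-05). Il1rn, the secreted antagonist of the interleukin-1 receptor, measured 7.33 and 20.5 pseudo-counts in proliferating cells, 4.59 and 7.45 in quiescent cells, 195 and 178 during clonal expansion and 36.8 and 44 in differentiated cells. Its clonal expansion libraries stood well above the rest, and differentiation kept an intermediate level. It rose by 4.77 on the log2 scale (SE 0.45, limma adjusted p = 8.79e-06) and fell by 2.18 on the log2 scale (SE 0.45, limma adjusted p = 0.00137). Il1f9, an interleukin-36 ligand, was between 0 and 0.934 in all libraries but those of clonal expansion, where it stood at 50.9 and 35.1. Without clonal expansion its mean was 0.463. Il18 fell at both steps after quiescence, from 639 and 572 to 264 and 191 and then to 141 and 137. The second fall lost its call in at least 1 fit that left out a library. The row of Il18, like that of Il20rb, overlaps the long row of Cdkn2d. Il1a did not exceed 18.8 in any library.

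**Figure D4:**
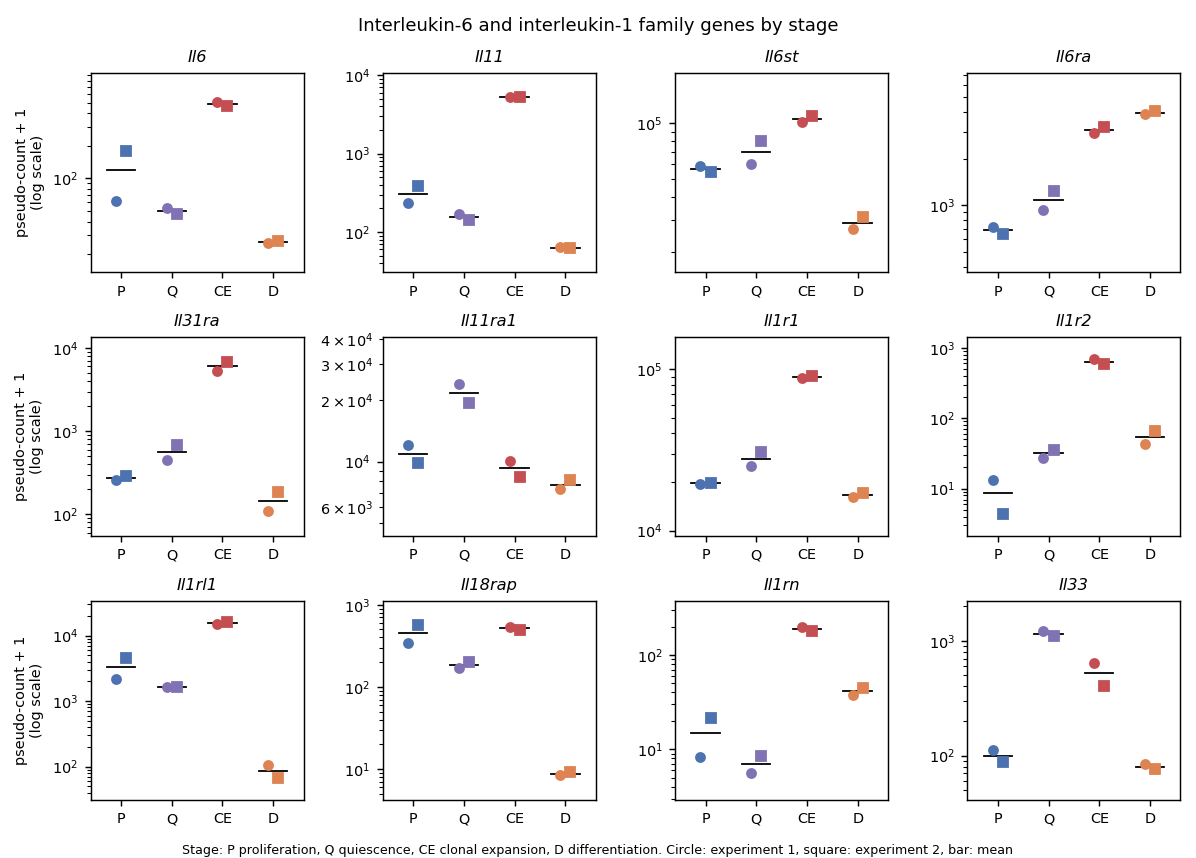
Levels of 12 interleukin-6 and interleukin-1 group genes by stage (pseudo-count + 1, log scale; circle and square are experiments 1 and 2, the bar is their mean). Clonal expansion is the highest stage for Il6, Il11, Il6st, Il31ra, Il1r1, Il1r2, Il1rl1 and Il1rn, differentiation for Il6ra, and quiescence for Il11ra1 and Il33.

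Differentiation gave the highest mean for 17 of the 68 members, and for 33.2% of all genes tested. The group related to interleukins 2, 3 and 4 held 5 of the 17: Il2ra, Il15ra, Il15, Il13 and Il7. Of these, Il2ra, Il15, Il13 and Il7 entered the family only through differentiation, so the filter fixed their peak there. Cxcl9, Il27 and Il1a, also among the 17, entered only through that stage as well. Il2ra, the high-affinity chain of the interleukin-2 receptor, measured 0 and 0.934 pseudo-counts in proliferating cells, 2.68 and 9.36 in quiescent cells, 7.45 and 11.8 during clonal expansion and 768 and 1005 in differentiated cells. The highest earlier library held 11.8, far below the 2 of differentiation. Il15ra, the next gene on chromosome 2 at a gap of 12341 bases, measured 256 and 301 pseudo-counts in proliferating cells, 309.7 and 264 in quiescent cells, 3981 and 3623 during clonal expansion and 5529 and 5341 in differentiated cells. Unlike Il2ra it was already high at clonal expansion. Il15ra rose by 3.73 on the log2 scale (SE 0.14, limma adjusted p = 7.47e-08) and stood 4.24 higher on the log2 scale at differentiation than at quiescence (SE 0.14, limma adjusted p = 8.1e-09). Il15, the ligand presented by Il15ra, measured 11.8 and 20.6 pseudo-counts in proliferating cells, 6.58 and 9.05 in quiescent cells, 0 and 1.15 during clonal expansion and 99.2 and 65.2 in differentiated cells. It was nearly absent at clonal expansion and highest at differentiation, without overlap.

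Il13, a type 2 cytokine, measured 4.78 and 1.67 pseudo-counts in proliferating cells, 1.19 and 3.29 in quiescent cells, 0 and 1.15 during clonal expansion and 145 and 172 in differentiated cells. The 6 earlier libraries held at most 4.78 and the differentiation libraries were far above them. Il7 took the same order of stages at a lower level, with at most 0.984 at clonal expansion and 37.3 and 21.2 at differentiation. In the same libraries the mast cell protease Cpa3 stood at 59.8 and 75.2, against at most 0.924 earlier. The myeloid gene S100a8 stood at 849 and 1054, after 850.2 and 658.0 at clonal expansion and at most 48.7 in the untreated libraries. The summed leukocyte list was lower than before, but that sum is weighted towards Lyz2 and Cd14, which both fell. The part of these markers in the levels of Il13 and Il7 was not tested. Of the receptor chains of interleukin-13 and interleukin-4, Il13ra1 and Il4ra went the other way. Il13ra2 was also highest at clonal expansion, at 129.8 and 102.5, but its differentiation libraries (66.9 and 60.7) overlapped those of quiescence (62.9 and 56). Il13ra1 measured 2162 and 3330.1 pseudo-counts in proliferating cells, 1344 and 1460.1 in quiescent cells, 9782 and 8178 during clonal expansion and 632 and 474 in differentiated cells. Clonal expansion was the highest stage and differentiation the lowest. It rose by 2.67 on the log2 scale (SE 0.21, limma adjusted p = 2.64e-06) and fell by 4.03 on the log2 scale (SE 0.21, limma adjusted p = 8.5e-08). Il4ra, its partner chain, rose by 0.92 on the log2 scale (SE 0.15, limma adjusted p = 0.000341) and fell by 2.20 on the log2 scale (SE 0.15, limma adjusted p = 5.22e-07).

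Il2rg, the common gamma chain without which the receptors of interleukin-2, interleukin-7 and interleukin-15 do not signal fully, measured 95.1 and 67.7 pseudo-counts in proliferating cells, 86.3 and 59.6 in quiescent cells, 20.3 and 13.5 during clonal expansion and 4.23 and 6.16 in differentiated cells. It was lowest where Il2ra and the ligands Il15 and Il7 were highest, and fell by 3.57 on the log2 scale (SE 0.37, limma adjusted p = 1.34e-05) from quiescence to differentiation. Il2rb, the second signal chain, fell by 0.82 on the log2 scale (SE 0.18, limma adjusted p = 0.00248) over the same interval. Il3ra, which binds interleukin-3, measured 3201 and 2168 pseudo-counts in proliferating cells, 4627 and 3139.6 in quiescent cells, 1139.6 and 886 during clonal expansion and 1071 and 1136 in differentiated cells. It fell by 1.92 on the log2 scale (SE 0.23, limma adjusted p = 3.79e-05) at clonal expansion and stayed low.

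In the interleukin-17 family, receptor chains diverged. Il17rc measured 9775 and 9663 pseudo-counts in proliferating cells, 11278 and 9255 in quiescent cells, 11503 and 9934 during clonal expansion and 31229 and 29336 in differentiated cells. The 3 earlier stages overlapped, and both differentiation libraries stood above them. It rose by 1.57 on the log2 scale (SE 0.12, limma adjusted p = 1.43e-06) against quiescence by differentiation. Il17re, which lies 703 bases before it on chromosome 6 and binds interleukin-17C, measured 35.6 and 17.5 pseudo-counts in proliferating cells, 47.4 and 38.2 in quiescent cells, 39.6 and 23.9 during clonal expansion and 823 and 614 in differentiated cells. It rose by 4.48 on the log2 scale (SE 0.37, limma adjusted p = 2.3e-06), far more than its neighbour in relative terms. Il17ra, the chain shared by these receptors, rose by 1.00 on the log2 scale (SE 0.12, limma adjusted p = 3.74e-05) and fell by 2.05 on the log2 scale (SE 0.12, limma adjusted p = 1.71e-07). Il17rd (Sef), known as an inhibitor of fibroblast growth factor signalling, measured 7096 and 5609 pseudo-counts in proliferating cells, 8701 and 12542 in quiescent cells, 876 and 1148 during clonal expansion and 977 and 1302 in differentiated cells. The 2 stages after the cocktail overlapped and both lay far below the untreated ones. Il17rd fell by 3.38 on the log2 scale (SE 0.22, limma adjusted p = 8.43e-07) at clonal expansion. Il20rb, a chain of receptors for the interleukin-20 group, measured 169 and 164 pseudo-counts in proliferating cells, 245 and 292 in quiescent cells, 359 and 318 during clonal expansion and 751 and 988 in differentiated cells, and rose by 1.68 on the log2 scale (SE 0.19, limma adjusted p = 2.81e-05). Il10rb, which serves receptors for interleukin-10 and related cytokines, was lowest at clonal expansion, where it fell by 1.25 on the log2 scale (SE 0.13, limma adjusted p = 1.73e-05), and then rose by 1.30 on the log2 scale (SE 0.13, limma adjusted p = 8.43e-06). Il34, a ligand of the macrophage growth factor receptor Csf1r, fell by 1.44 on the log2 scale (SE 0.17, limma adjusted p = 4.44e-05) at clonal expansion.

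**Figure D5:**
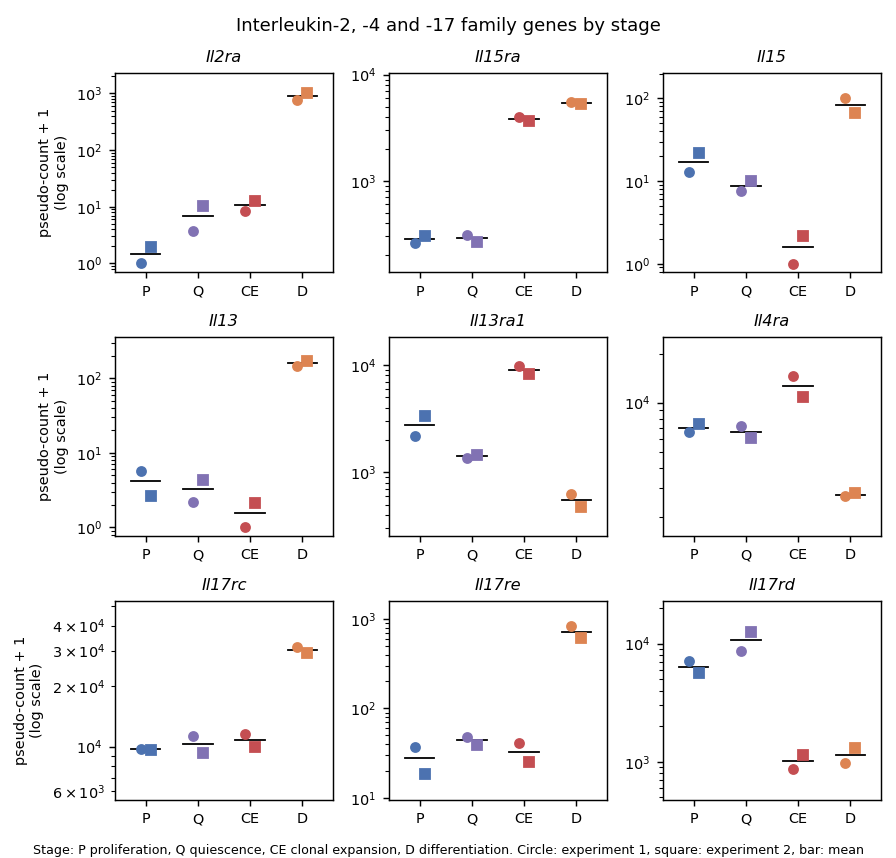
Levels of 9 genes of the interleukin-2, interleukin-4 and interleukin-17 groups by stage (pseudo-count + 1, log scale; circle and square are experiments 1 and 2, the bar is their mean). Il2ra, Il15, Il13, Il17rc and Il17re are highest in both differentiation libraries, Il13ra1 and Il4ra in both clonal expansion libraries, and Il17rd is low after the cocktail.

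Genes around these receptors were described from 5 lists that share some members. Of 24 JAK-STAT genes tested, 9 rose and 11 fell at clonal expansion and 8 rose and 10 fell from there to differentiation, with medians of -0.05 in both (34.4% in each direction, then 36.8% and 36.2%, of all genes tested). Socs3, a feedback inhibitor of gp130 signalling, fell by 2.84 on the log2 scale (SE 0.10, limma adjusted p = 7.81e-09), from 16249 ± 813 to 2279 ± 190.5 pseudo-counts between clonal expansion and differentiation (mean ± SD, n = 2). Socs1 fell by 2.52 on the log2 scale (SE 0.16, limma adjusted p = 4.11e-07), from 2122 ± 23.1 to 371 ± 62.7 pseudo-counts. Of 30 genes of interleukin-1, Toll and NF-kB signalling, 10 rose and 10 fell at clonal expansion, and 10 rose and 11 fell by differentiation, with medians of -0.04 and -0.07. Irak2, a kinase of the interleukin-1 receptor complex, fell by 2.72 on the log2 scale (SE 0.14, limma adjusted p = 3.29e-07), from 3345 ± 80.8 to 508 ± 25.1 pseudo-counts at clonal expansion. By differentiation it rose by 3.42 on the log2 scale (SE 0.14, limma adjusted p = 2.33e-08), from 508 ± 25.1 to 5481 ± 900.3 pseudo-counts. Bcl3, an NF-kB co-regulator, rose by 1.26 on the log2 scale (SE 0.12, limma adjusted p = 7.97e-06), from 2826 ± 316 to 6753 ± 12.2 pseudo-counts and later fell by 2.84 on the log2 scale (SE 0.12, limma adjusted p = 1.99e-08), from 6753 ± 12.2 to 945 ± 12.1 pseudo-counts. The shares called in these 2 lists were near those of all genes.

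Of 28 NF-kB target genes outside the family, 13 rose and 10 fell at clonal expansion, with a median of 0.29 (11 and 12 with each library scaled to the same total), and 5 rose and 20 fell by differentiation, with a median of -1.16 (17.9% and 71.4%, against 36.8% and 36.2% of all genes). Lcn2 (lipocalin 2) rose by 7.74 on the log2 scale (SE 0.17, limma adjusted p = 1.21e-08), from 152 ± 2.58 to 32687 ± 4683 pseudo-counts at clonal expansion, and Saa3, an acute phase protein, rose by 5.05 on the log2 scale (SE 0.40, limma adjusted p = 2.73e-06), from 44.7 ± 26.5 to 1386 ± 182 pseudo-counts. Ptx3, a secreted pentraxin, fell by 4.53 on the log2 scale (SE 0.23, limma adjusted p = 7.99e-08), from 96179 ± 2558 to 4361 ± 1853 pseudo-counts by differentiation. Against that trend C3, the central complement component, rose by 4.72 on the log2 scale (SE 0.14, limma adjusted p = 3.55e-09), from 52959.8 ± 2876 to 1395447 ± 163339 pseudo-counts. Of 26 other cytokines and receptors, 12 rose and 6 fell at clonal expansion (34.4% of all genes in each direction), with a median of 0.30. With each library scaled to the same total, 8 rose and 9 fell there. By differentiation 5 rose and 12 fell (36.8% and 36.2% of all genes), with a median of -0.49. Osmr, the oncostatin M receptor that pairs with Il31ra, rose by 2.42 on the log2 scale (SE 0.15, limma adjusted p = 6.41e-07), from 17027 ± 2714 to 90781 ± 844 pseudo-counts, and Clcf1, a gp130 cytokine, rose by 2.29 on the log2 scale (SE 0.16, limma adjusted p = 1.22e-06), from 2098 ± 119.8 to 10280.3 ± 295 pseudo-counts. Osmr then fell by 3.31 on the log2 scale (SE 0.15, limma adjusted p = 2.96e-08), from 90781 ± 844 to 9144 ± 503 pseudo-counts. Csf1, the macrophage growth factor, fell by 3.19 on the log2 scale (SE 0.12, limma adjusted p = 1.49e-08), from 50250.1 ± 186 to 5530.2 ± 722 pseudo-counts from quiescence to differentiation. Of 12 further chemokine system genes, 5 rose and 6 fell by differentiation (36.8% and 36.2% of all genes). Rarres2 (chemerin), an attractant made by fat cells, rose by 5.16 on the log2 scale (SE 0.23, limma adjusted p = 3.03e-08), from 818 ± 153 to 29163 ± 3509.8 pseudo-counts, and the membrane-bound chemokine Cx3cl1 fell by 2.55 on the log2 scale (SE 0.12, limma adjusted p = 5.16e-08), from 24662 ± 3040.0 to 4205 ± 214 pseudo-counts.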

How the data were processed

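RNA-seq of 8 libraries from 3T3-L1 cells was used, 2 per stage. Total RNA was extracted with Trizol and made into unstranded TruSeq libraries, read as single reads of 100 nt on a HiSeq2000, per the labels' protocols. The deposited values are a signal per gene: pseudo-counts that the authors made with edgeR and relative log expression factors. These scale reads per gene between libraries without making the library totals equal. The submitters' processing notes list CASAVA 1.8.2, edgeR and the mm9 genome, and the aligner and gene models are not given in the sources used here. Unstranded reads cannot separate overlapping genes, and pseudo-counts do not return the original reads, so no count test was run.

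The members and all gene lists were chosen with earlier results of these data known. Genes with a mean of at least 10 pseudo-counts over the 8 libraries were tested, 14647 in all. Limma 3.58.1 in R 4.3.3 was fitted to log2(value + 1) with stage as the factor and a mean-variance trend, on 4 residual degrees of freedom and 9.78 including those borrowed across genes. Fold changes are on that scale, which understates changes of low genes. The tests are two-sided, their p-values were adjusted over all genes tested by the method of Benjamini and Hochberg, the threshold was 0.05, and the fit was checked on simulated data. Tables were handled with Python 3.11.15, pandas 2.3.3 and numpy 2.4.6. Levels per kilobase used the median length of the gene's GENCODE M21 transcripts linked to its NCBI gene identifier, known for all 68 members. Members named in full had, in some comparison, one of the 8 largest called rises or falls without overlap between libraries and with 50 pseudo-counts or more on average in the higher stage, or the highest level per kilobase of their class. Of each pathway list, examples came from its 3 largest called changes per direction and comparison. Some genes that these rules name are not reported here. Same-numbered libraries deviated together (correlation over 0.1) in 2 of 6 pairs of stages, so the number was not taken as pairing them. Alternatives were other pseudocounts, filters and scalings, a replicate block, no mean-variance trend, and leaving out each library.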

Additional observations from a re-analysis of the deposited data

How the results depend on the processing

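The counts of members called held within 1.5 times under all 17 alternatives except those for quiescence against proliferation. There, 15 higher and 6 lower became 2 and 1 with no filter on low values (4.18% and 3.53% of all genes), and leaving out 1 library gave 3 to 15 higher and 1 to 10 lower, with 3 and 1 without proliferation 2 and 14 and 10 without proliferation 1. In the other comparisons leaving out 1 library gave 21 to 25 higher and 24 to 27 lower at clonal expansion against quiescence, 16 to 19 and 29 to 33 at differentiation against clonal expansion, and 13 to 17 and 35 to 37 at differentiation against quiescence. With the experiment number as a replicate block, the counts were 18 and 7, 24 and 27, 21 and 34, and 16 and 36 in the 4 comparisons, and no called member lost its call. Fold changes were followed for 180 pairs of a member and a comparison, namely all called pairs and a few uncalled ones. The uncalled ones were Il6, Cxcl1 and Il1rl1 on confluence, and Il1rl2 and Il1rap at clonal expansion against quiescence. Gains of a call by other uncalled members are not counted here. Of 3038 such recomputed fold changes, 2866 kept direction and side of the threshold, 158 lost the call, 13 gained one and 1 reversed. The reversal was Il16 at differentiation against clonal expansion, at -0.14 after quantile normalization, against 0.73. That scaling also brought Ccl11, Ccl6 and Il34 at clonal expansion against quiescence to -0.84, -1.27 and -0.82, and Ccl9 at differentiation against clonal expansion to 0.80, all still called. At least 1 alternative ended the call of 9 of 49 members at clonal expansion against quiescence, Il6st, Cxcr7 and Cxcl1 among them, of 11 of 53 at differentiation against clonal expansion, Cxcl13, Il15ra and Il6ra among them, and of 6 of 52 at differentiation against quiescence, Ccl6 and Ccr10 among them. Scaling to the same total moved the median of all genes by -0.233 both at clonal expansion and at differentiation against quiescence. Quantile normalization moved it by -0.117 at differentiation against clonal expansion, and removing a trend with length and GC by -0.220. The cause of these differences was not tested. Members near 10 pseudo-counts, such as Il7, Il1a and Il1f9, rest on few reads.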

Other observations

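Partners of several members were scarce. Of 135 rows with a fitting symbol, 67 had a mean under 10. Among receptors, Il7r, the specific chain for interleukin-7, stood at or below 0.95 in every library, and Il20ra, a partner of Il20rb, was listed at 0 in all 8. Il18r1, which pairs with Il18rap, measured 23.3 and 19.8 pseudo-counts at clonal expansion and at most 9.95 elsewhere. Il1b, the best known ligand of Il1r1, did not exceed 3.71 in any library, and Il4, a ligand of Il4ra, did not exceed 15.1.

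Of the rows under the mean of 10, 4 with their highest levels at differentiation are named here. Cxcr2, the receptor of Cxcl1 and Cxcl5, was listed at 0 in the 6 earlier libraries and stood at 33.6 and 23.7 at differentiation, the stage at which Cxcl1 and Cxcl5 were lowest. Cxcl3, a further ligand of Cxcr2, stood at 31 and 13.8 there and at most 1.88 earlier. Ccr1, a receptor of several CC chemokines, stood at 24.1 and 15.5 there, at 6.65 and 2.56 at clonal expansion and at 0 in the untreated libraries. Ccr9, the receptor of Ccl25, stood at 15.3 and 18.2 there and at most 5.28 earlier. These rows were chosen after their values were seen and were not tested.

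Among 4 markers of epithelial cells, Krt18 stood at 1712 and 801 pseudo-counts at differentiation and at most 2.81 earlier. Krt8 stood at 107 and 55.1 there and at most 5.17 earlier. Cdh1 was highest in proliferating cells, at 14.3 and 12.9, and stood at 3.16 and 3.09 at differentiation, while Epcam was listed at 0 in all 8 libraries.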
